A study of Mus musculus with 8 samples.

Results

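The response of p53-intact NF1-MET cells to the MET kinase inhibitor capmatinib was measured by RNA sequencing in 4 of the 8 libraries of the series. The members were the 2 libraries from cells given 100 nM capmatinib for 24 h and the 2 libraries from cells given vehicle (DMSO) for the same time, and 14496 of the 50600 genes listed were tested. NF1-MET is 1 cell line, isolated from a malignant peripheral nerve sheath tumour (MPNST, a sarcoma of the Schwann cell lineage) of a mouse with the genotype Nf1 fl/ko;lox-stop-lox MET tg/+;Plp-creERT tg/+. In this mouse the Plp promoter drives a tamoxifen-inducible Cre in Schwann lineage cells, which removes Nf1 and switches on the MET transgene, so both treatment groups share Nf1 loss and an active MET transgene. The line is described as Met-amplified, Trp53 wild-type and spontaneously deleted for Cdkn2a. The other 4 libraries came from NF1-MET;sgP53, a derivative in which Trp53 was targeted with CRISPR, under the same pair of treatments, and are used here only where the responses of the lines are compared. The study calls NF1-MET the parental line where it compares the 2 lines, but it also made NF1-MET cells with an empty vector, and the labels do not say whether the libraries labelled NF1-MET carry it. The 2 libraries of a group are labelled as replicates of 1 line. The methods say that cells on a multi-well plate were treated in duplicate, so the 2 may be wells of 1 plating. The p-values measure the spread between such cultures, which may not cover separate experiments, and not between tumours.

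MET is the receptor for hepatocyte growth factor (HGF). Once active it binds the adaptors GAB1 and GRB2 and signals through RAS to the kinases MEK and ERK, through PI3K to AKT, and through STAT3. Neurofibromin, the product of Nf1, turns RAS off, so its loss leaves RAS signalling high in these tumours. Active ERK induces immediate early and ETS transcription factors, cyclin D1 and a set of feedback inhibitors (DUSP phosphatases, Sprouty and SPRED proteins) that in turn limit ERK. The question asked by the comparison is which genes change when MET kinase activity is blocked in cells with intact p53.

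Short promoter motifs of 4 factors were searched in the window from 250 bases before to 50 bases after the RefSeq start of each gene (GRCm38.p6, both strands, 27025 genes), and 8 of the matches are shown. For each motif they lie in the called members with the largest changes in a gene group in which that motif is counted later. Only members whose stretch lay upstream of the start and outside exons were taken. The CArG box, bound by serum response factor, was found in 1.57% of all promoters, the TEAD motif GGAATG in 14.6%, the AP-1 motif TGANTCA in 7.93% and the E2F core GCGGGAA in 4.66%. The stretches are written 5′ to 3′ on the coding strand of the gene with the motif in capitals and 20 bases on each side. In the TEAD and E2F examples the motif reads on the opposite strand, so the capitals show its reverse complement. Those of Myl9 (chr2:156775283-156775332, plus strand) and Cnn2 (chr10:79988524-79988573, plus strand) hold CArG boxes, those of Vgll3 (chr16:65815106-65815151, plus strand) and Ccn1 (chr3:145650063-145650108, minus strand) TEAD motifs, those of Pola1 (chrX:93632298-93632344, minus strand) and Uhrf1 (chr17:56303269-56303315, plus strand) E2F cores, and those of Serpinb2 (chr1:107511309-107511355, plus strand) and Mmp10 (chr9:7502259-7502305, plus strand) AP-1 motifs. Pairs of motif and gene group were picked after the expression values were seen, and a match describes the letters in this window and not a site shown to be bound.
Myl9: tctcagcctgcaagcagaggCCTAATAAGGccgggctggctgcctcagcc
Cnn2: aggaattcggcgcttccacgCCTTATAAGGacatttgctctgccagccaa
Vgll3: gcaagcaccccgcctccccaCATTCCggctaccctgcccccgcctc
Ccn1: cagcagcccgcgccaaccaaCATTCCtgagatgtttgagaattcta
Pola1: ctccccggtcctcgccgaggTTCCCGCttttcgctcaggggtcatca
Uhrf1: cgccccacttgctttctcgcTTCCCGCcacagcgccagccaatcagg
Serpinb2: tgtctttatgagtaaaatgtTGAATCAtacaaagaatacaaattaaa
Mmp10: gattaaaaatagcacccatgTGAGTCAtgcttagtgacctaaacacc

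Capmatinib changed most of the measured transcriptome of NF1-MET cells. Contractile and matrix genes rose, and several growth factor ligands, most ERK feedback genes, replication genes and ribosome biogenesis genes fell. Of the 14496 genes tested, 10169 (70.2%) were called at an adjusted p under 0.05 (edgeR quasi-likelihood F-test, Benjamini-Hochberg), 5140 higher with capmatinib (35.5% of genes tested) and 5029 lower (34.7%). When the libraries were scaled by their totals alone, without the composition correction (TMM), 3508 were called higher and 6381 lower, and the median over all genes tested moved from 0.00 to -0.18 on the log2 scale, so the even split of higher and lower genes rests on the scaling. A change of at least 2-fold was called higher for 1664 genes (11.5%) and lower for 776 (5.35%), and 257 genes were at least 8-fold higher against 107 at least 8-fold lower. The share called rose with level, from 33.8% of genes under 1 CPM (the count of a gene scaled to the TMM-corrected library size) to 90.0% of those over 100 CPM.

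The total count per library was between 30116810 and 42781371 in the 4 libraries. The nuclear non-coding gene Gm42418, which shares sequence with ribosomal RNA, took 5.29% to 13.1% of the counts of a library, and the second vehicle library had the lowest share. The 4 sgP53 libraries ranged from 1.11% to 10.0%. Replicates were close, with a spread 1.56 times sampling noise between the vehicle libraries and 1.55 times between the capmatinib libraries (median over genes) and a biological coefficient of variation of 2.34%. The 2 groups did not overlap in CPM for 12131 genes (83.7%), so a lack of overlap alone sets no gene apart here.

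**Figure D1:**
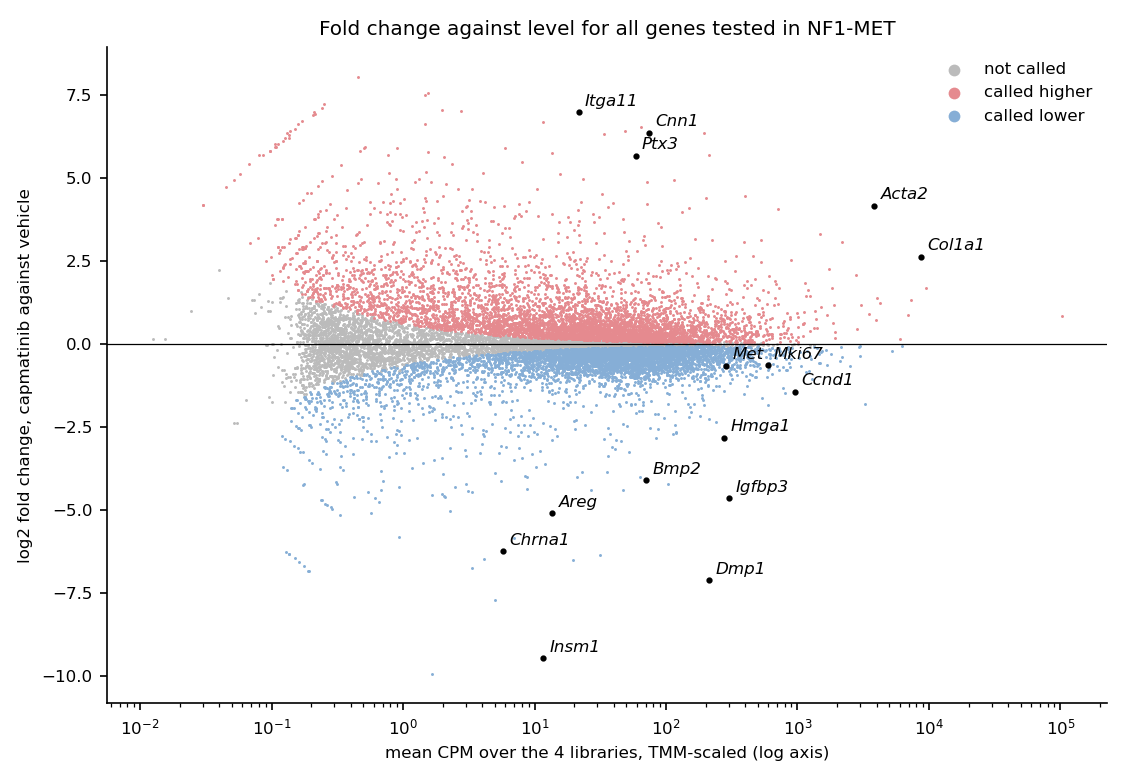
Each point is 1 of the 14496 genes tested, with its mean level over the 4 NF1-MET libraries (CPM, log axis) and its log2 fold change with capmatinib, red where called higher, blue where called lower and grey where not called. Acta2 and Col1a1 combine a high level with a large rise, and Dmp1 and Igfbp3 a high level with a large fall, and fitted values of genes such as Insm1 with almost no counts in 1 group depend on the prior count of the fit.

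On the per-length scale (CPM per kilobase of exon, the scale on which genes can be compared), the genes with the highest levels in vehicle, leaving out mitochondrial genes and the non-coding Gm42418, Gm23935, Gm24187 and CT010467.1, were Lgals1 at 3726 and 3666, Spp1 at 3096 and 3019, and Eef1a1 at 2551 and 2512. With capmatinib, Actb at 3394 and 3318 and Acta2 at 3336 and 3298 stood above Lgals1 at 2896 and 2902. Acta2 had stood at 182 and 185 in vehicle on this scale. Col1a1 moved from 359.7 and 371 to 2255 and 2289. Spp1, which encodes the secreted matrix phosphoprotein osteopontin, dropped to 884 and 857. A smooth muscle actin and type I collagen thus joined the most abundant transcripts of capmatinib-treated cells.

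The receptor and its ligand both fell. Met (ENSMUSG00000009376, chr6:17463800-17573980, mm10) was at 344 and 355 CPM in the vehicle libraries and at 223 and 224 CPM with capmatinib, a log2 fold change of -0.64 ± 0.024 (SE, n = 2 per group, adjusted p = 2.47e-21, edgeR). The counting could have assigned reads of the MET transgene to this gene wherever the sequences match, so the endogenous gene and the transgene cannot be told apart. Hgf, the ligand of MET, was at 53.6 and 50.1 CPM in vehicle and at 25.6 and 25.7 CPM with capmatinib (log2 fold change -1.01 ± 0.049, adjusted p = 1.76e-18). On the per-length scale Met stood at 44.8 and 46.2 CPM per kilobase in vehicle and Hgf at 7.46 and 6.97, so the receptor transcript was above that of its ligand.

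Of the 44 listed genes of HGF and MET signalling and turnover, 38 passed the filter, and 11 were called higher (28.9%, against 35.5% of all genes), 17 lower (44.7%, against 34.7%) and 10 not called, with a median log2 fold change of -0.04. With library totals alone 5 were called higher and 24 lower, with a median of -0.23. That scaling moved the median of each list down by about as much as the median of all genes, so medians and counts near balance rest on the scaling. The adaptor Gab1 rose from 20.5 and 19.3 CPM to 43.2 and 44.2 (log2 fold change 1.14 ± 0.052). Stat3, a transcription factor downstream of MET, rose from 69.3 and 70.5 CPM to 163 and 168 (log2 fold change 1.24 ± 0.03, adjusted p = 1.33e-26). Cd44, a hyaluronan receptor that can act as a MET co-receptor, fell from 825 and 848 CPM to 452 and 439. Errfi1, an inhibitor of EGF receptor family kinases, was at 585 and 579 CPM in vehicle and at 582 and 579 CPM with capmatinib. Grb2, Ptpn11, Crk, Crkl, Cbl, Cblb, Eps15 and Usp8, adaptors and degradation factors picked for their small changes, had log2 fold changes between -0.16 and 0.09. Genes beyond those fixed by the naming rule, such as Gab1, Cd44 and others in the paragraphs that follow, were picked from the lists after their values were seen.

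The feedback inhibitors of ERK moved in both directions. All 18 members that passed the filter were called (against 70.2% of all genes), 12 lower (66.7%, against 34.7%) and 6 higher (33.3%, against 35.5%), with a median log2 fold change of -0.50 against 0.00 over all genes. Dusp4, a nuclear ERK phosphatase, fell from 79.9 CPM in both vehicle libraries to 14.5 and 15.3 with capmatinib (log2 fold change -2.42 ± 0.047). Dusp5 fell from 119.8 and 116 CPM to 35.3 and 37.3. Dusp9 fell from 12 and 13.1 CPM to 2.42 and 2.22 (log2 fold change -2.45 ± 0.12). Spred1, which recruits neurofibromin to RAS at the membrane, fell from 358 and 361 CPM to 153 and 146.

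Dusp6, the cytoplasmic ERK phosphatase, and Spry4 moved less. Dusp6 was at 140.0 and 142 CPM in vehicle and at 116 and 112 CPM with capmatinib (log2 fold change -0.31 ± 0.029, adjusted p = 3.44e-11). Spry4 was at 83.8 and 79.7 CPM in vehicle and at 55.9 and 54.3 CPM with capmatinib (log2 fold change -0.57 ± 0.037). Dusp1, a stress-inducible nuclear phosphatase of the JNK, p38 and ERK kinases, went the other way, from 44.1 and 41.5 CPM to 260.0 and 262 CPM (log2 fold change 2.61 ± 0.032, adjusted p = 1.32e-34). Dusp8 rose as well, from 5.58 and 5.85 CPM to 17.9 and 21.2.

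Among the early-response and ETS genes that ERK can induce, 19 of 38 were called higher (against 35.5% of all genes), 16 lower (42.1%, against 34.7%) and 3 not called (median log2 fold change 0.13 with the composition correction and -0.05 with library totals alone). The 3 ETS genes of the PEA3 family fell. Etv1 went from 37.5 and 39.5 CPM to 17.7 in both libraries, Etv4 from 103 and 108 CPM to 26.6 and 26.1 (log2 fold change -2.00 ± 0.04), and Etv5 from 106 and 101 CPM to 37.9 and 38.3. The AP-1 subunit Fosl1 fell from 160.3 and 159.6 CPM to 45.8 and 45.5 (log2 fold change -1.81 ± 0.031). The chromatin architectural genes Hmga1 and Hmga2 fell most in this group: Hmga1 was at 484 CPM in both vehicle libraries and at 70.0 and 68.2 with capmatinib (log2 fold change -2.81 ± 0.027, adjusted p = 1.03e-37), and Hmga2 went from 811 and 802 CPM to 156 and 155.

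Some immediate early genes were higher. Fos rose from 2.81 and 2.11 CPM to 40.5 and 40.8 (log2 fold change 4.05 ± 0.087). Egr1 was at 353 and 350.4 CPM in vehicle and at 654 and 673 CPM with capmatinib (log2 fold change 0.92 ± 0.022). The nuclear receptor Nr4a1 rose from 61.1 and 60.2 CPM to 254 and 253. Within the AP-1 family, Fos and Junb rose while Fosl1 and Fosb fell. Myc was at 146 and 148 CPM in vehicle and at 141 and 146 CPM with capmatinib, and this difference was not called (log2 fold change -0.03 ± 0.028, adjusted p = 0.307), although library totals alone gave -0.22 with an adjusted p of 0.000278.

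Most ligands of the EGF receptor family fell, while of the receptors Egfr and Erbb2 were called higher and Erbb3 was not called. Of the 14 ERBB genes that passed the filter, 7 were called lower (against 34.7% of all genes) and 5 higher (35.7%, against 35.5%), or 8 and 3 with library totals alone. Falls of at least 2-fold were called for 5 of the 14, against 5.35% of all genes. Areg (amphiregulin) was at 27.2 and 26.0 CPM in vehicle and at 0.595 and 0.907 CPM with capmatinib (log2 fold change -5.09 ± 0.12, adjusted p = 1.61e-26). Hbegf fell from 161 and 158 CPM to 35.4 and 33.7, Btc (betacellulin) from 74.4 and 72.0 CPM to 8.37 and 8.14, and Ereg (epiregulin) from 332 and 322 CPM to 126 and 127. Nrg1 (neuregulin-1), the ligand that sustains Schwann cells through ERBB3, rose instead from 17.3 and 18.4 CPM to 40.9 and 40.7 (log2 fold change 1.19 ± 0.054). Egfr was at 29.1 and 26.7 CPM in vehicle and at 31.9 and 35.4 CPM with capmatinib, a rise that was called (log2 fold change 0.28 ± 0.056, adjusted p = 4.44e-05) but not with library totals alone (log2 fold change 0.09, adjusted p = 0.249).

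Of the 39 other receptor tyrosine kinases and ligands that passed the filter, 25 were called higher (64.1%, against 35.5% of all genes) and 11 lower (28.2%, against 34.7%), with a median log2 fold change of 0.59. Igf1 (insulin-like growth factor 1) rose from 2.13 and 2.24 CPM to 42.8 and 43.4 (log2 fold change 4.30 ± 0.083). Pdgfrb rose from 175 and 180.3 CPM to 431 and 435, and its ligand Pdgfb from 6.72 and 6.24 CPM to 38.4 and 38.1, whereas Pdgfra was at 409.9 and 408 CPM in vehicle and at 317 and 314 CPM with capmatinib (log2 fold change -0.38 ± 0.023). Fgf7 rose from 109.6 and 104 CPM to 343 and 333. The 3 TAM receptors fell, Mertk from 79.5 and 80.6 CPM to 28.6 and 29.1, Axl from 1762 and 1793 CPM to 1217 and 1206, and Tyro3 by less, from 32.5 and 33.3 CPM to 26.7 and 27.7. Gfra1, the co-receptor for GDNF, fell from 50.7 and 51.6 CPM to 2.91 and 2.07 (log2 fold change -4.40 ± 0.085), while Gdnf itself rose (log2 fold change 1.51).

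**Figure D2:**
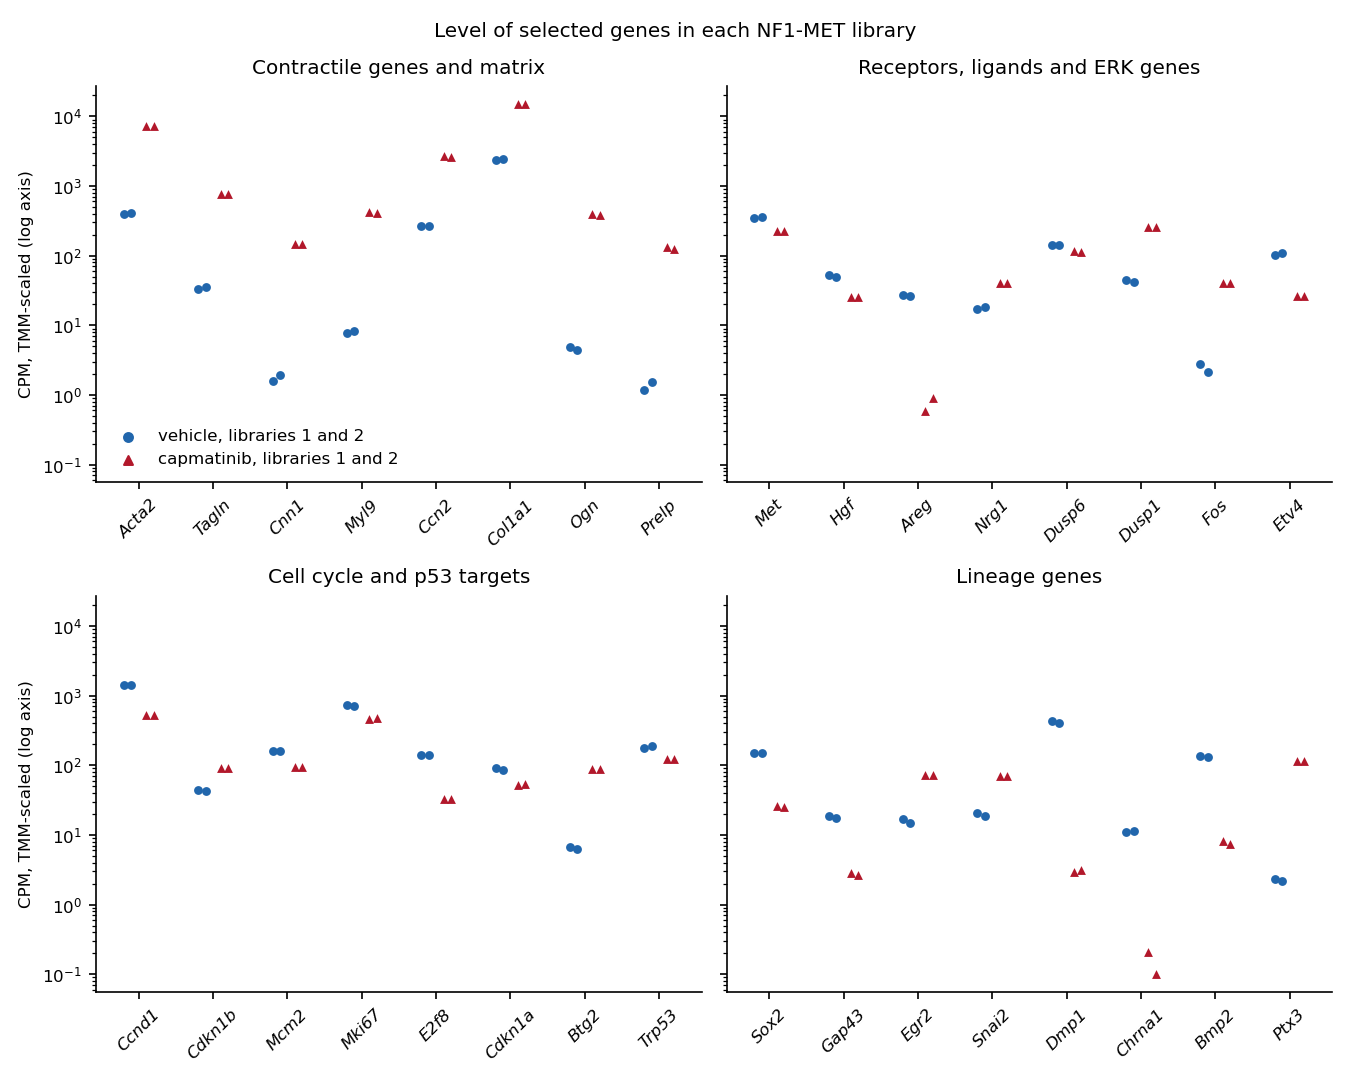
Level of 32 genes in each of the 4 NF1-MET libraries (CPM, log axis), with blue circles for the 2 vehicle libraries and red triangles for the 2 capmatinib libraries. In each of these genes the groups do not overlap. The replicates lie close together except where counts are few, as in the capmatinib libraries of Chrna1 (0.210 and 0.101 CPM) and Areg (0.595 and 0.907 CPM). The distance between groups runs from that of Dusp6 (140.0 and 142 against 116 and 112 CPM) to that of Dmp1 (438 and 409.8 against 2.94 and 3.15 CPM).

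The listed replication and mitosis genes fell as a body. All 51 listed DNA replication genes were called lower (100.0%, against 34.7% of all genes tested), with a median log2 fold change of -0.84. Of these, 9 were at least 2-fold lower (against 5.35% of all genes). All 48 listed mitosis genes were called lower as well, with a median of -0.70. Only 2 of the 48 were at least 2-fold lower, against 5.35% of all genes, so their falls were mostly small. The direction held for all 99 under the DESeq2 size factors and the library totals. Log2 fold changes ran from -2.11 (E2f8) to -0.19 (Rpa1) in replication genes and from -1.10 (Cdc25b) to -0.22 (Spc25) in mitosis genes. Whether fewer cells were cycling or each cycling cell held less of these RNAs cannot be told apart in bulk libraries.

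Mcm2, a subunit of the replicative helicase, was at 161 CPM in both vehicle libraries and at 94.5 and 94.8 CPM with capmatinib (log2 fold change -0.77 ± 0.029). Mki67, the proliferation marker, was at 720.5 and 716 CPM in vehicle and at 459 and 472 CPM with capmatinib (log2 fold change -0.63 ± 0.022). The steepest falls in the replication group were those of the E2F family members E2f8, from 142 and 138 CPM to 32.4 and 32.5 (log2 fold change -2.11 ± 0.035), and E2f2, from 10.8 and 10.3 CPM to 2.31 and 2.92. Among the mitosis genes, the CDK-activating phosphatase Cdc25b fell most, from 111 and 109 CPM to 47.0 and 54.8 (log2 fold change -1.10 ± 0.041). The E2F core was present in 16 of the 42 replication gene promoters that could be read (38.1%) and in 1 of the 39 mitosis gene promoters (2.56%), against 8.73% of the promoters of all genes tested. Pola1 and Uhrf1, whose stretches are shown above, fell from 106 and 109.6 CPM to 51.5 and 52.2 and from 208 and 213 CPM to 103 and 104.

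Upstream of these, the regulators of G1 gave 16 members lower (57.1%, against 34.7% of all genes), 8 higher (28.6%, against 35.5%) and 4 not called of 28 tested. Scaling by library totals gave 20 lower and 4 higher. Ccnd1 (cyclin D1, ENSMUSG00000070348, chr7:144929931-144939925), the G1 cyclin that ERK signalling induces, was at 1406 and 1400.1 CPM in vehicle and at 524 and 518 CPM with capmatinib (log2 fold change -1.43 ± 0.02, adjusted p = 2.00e-33). Ccnd2 moved the other way, from 93.1 and 88.8 CPM to 156 and 154, and Ccnd3 was not called. Cdkn1b, which encodes the CDK inhibitor p27, rose from 43.4 and 43 CPM to 91.5 and 91.6 (log2 fold change 1.08 ± 0.036). Cdkn1a, which encodes the CDK inhibitor p21, fell instead, from 90.9 and 85.5 CPM to 52.7 and 53.2 (log2 fold change -0.73 ± 0.037, adjusted p = 5.05e-18). Cdkn2a, described as deleted in this line, was counted at 11.2 and 10.6 CPM in vehicle and at 9.35 and 8.06 CPM with capmatinib, and gene counts do not show which exons these reads came from.

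Of 30 p53 targets tested, 11 were called higher (36.7%, against 35.5% of all genes), 13 lower (43.3%, against 34.7%) and 6 not called, with a median log2 fold change of -0.04. Scaling by library totals gave 10 higher and 16 lower, with a median of -0.22. Trp53 itself fell from 178 and 189 CPM to 122 and 124 (log2 fold change -0.58 ± 0.03). The p53 targets Cdkn1a, Mdm2, Bax, Aen and Eda2r were lower, Eda2r going from 17.1 and 17.0 CPM to 7.39 and 7.43 (log2 fold change -1.20 ± 0.08). Among the members that rose, Btg2, an antiproliferative gene, went from 6.69 and 6.27 CPM to 87.7 and 87.6 (log2 fold change 3.76 ± 0.054), Ddit4, an mTORC1 inhibitor, from 10.2 and 10.1 CPM to 43.3 in both libraries, and Gadd45a from 7.42 and 7.13 CPM to 22.7 and 23.6.

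In the BCL2 family, 9 of 15 members were called higher (60.0%, against 35.5% of all genes) and 4 lower (26.7%, against 34.7%). With library totals alone, and also by the DESeq2 Wald test, 5 were called higher and 4 lower. Bmf, a BH3-only promoter of apoptosis, was at 0.944 and 0.934 CPM in vehicle and at 13.0 and 13.2 CPM with capmatinib (log2 fold change 3.80 ± 0.14). Bid rose from 6.93 and 7.99 CPM to 23.3 and 22.2, and Bcl2l11, which encodes BIM, rose from 20 and 20.6 CPM to 26.0 and 27.5 (log2 fold change 0.40 ± 0.058). The anti-apoptotic Bcl2l1 fell from 117 and 119 CPM to 60.0 and 59.5, while Bcl2 rose (log2 fold change 0.75). Pmaip1, which encodes NOXA, fell from 17.3 and 16.4 CPM to 8.16 and 7.84 (log2 fold change -1.08 ± 0.08).

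Smooth muscle contractile genes had the highest median log2 fold change of the lists with more than 10 tested members. Of the 29 tested, 28 were called higher (96.6%, against 35.5% of all genes) and 1 lower (3.45%, against 34.7%), and that median was 1.64. Rises of at least 2-fold were called for 21 of the 29, against 11.5% of all genes. Their summed level went from 9323 and 9288 CPM in vehicle to 31682 and 31662 CPM with capmatinib. Acta2 (smooth muscle alpha-actin, ENSMUSG00000035783, chr19:34241090-34255590) was at 399.9 and 407 CPM in vehicle and at 7326 and 7243 CPM with capmatinib (log2 fold change 4.17 ± 0.017, adjusted p = 1.28e-47). Tagln (transgelin) rose from 33.5 and 35.5 CPM to 761 and 757 (log2 fold change 4.46 ± 0.029).

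Cnn1 (calponin), Lmod1 (leiomodin) and Myl9 (a myosin regulatory light chain) had low CPM in vehicle and rose as well. Cnn1 went from 1.56 and 1.97 CPM to 148 in both libraries (log2 fold change 6.38 ± 0.061), Lmod1 from 1.27 and 0.983 CPM to 97.2 and 94.4 (log2 fold change 6.41 ± 0.077), and Myl9 from 7.82 and 8.26 CPM to 426 and 412 (log2 fold change 5.70 ± 0.038). Not every smooth muscle gene was present. The myosin heavy chain Myh11 reached 3.05 and 3.02 CPM with capmatinib, and Des (desmin) and Myocd (myocardin) had no count in any of the 4 libraries. Mrtfa, Mrtfb and Srf, which encode the coactivators and serum response factor that bind CArG boxes, rose by less, Srf from 69.5 and 68.5 CPM to 102 in both libraries. Csrp2, a LIM protein, was the member called lower, from 177 and 179.9 CPM to 100.4 and 103 (log2 fold change -0.81 ± 0.029).

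The CArG box was found in the promoter window of 4 of the 23 contractile genes that could be read (17.4%), namely Myl9, Cnn2, Srf and Vcl, against 1.38% of the promoters of all genes tested and 2.82% of those of genes at least 2-fold higher. In Myl9 it lay at -161 to -152 and in Cnn2 at -56 to -47 from the start used. Cnn2 rose from 335 and 345 CPM to 1125 and 1087, and Vcl (vinculin) from 589.9 and 583 CPM to 1826 and 1836. The windows of Myl9 and of Acta2 belong to the first RefSeq start listed, which is not the only start of these genes.

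Genes of the Hippo pathway output moved with them. Of 30 YAP and TEAD targets and partners, 21 were called higher (70.0%, against 35.5% of all genes), 5 lower (16.7%, against 34.7%) and 4 not called, with a median log2 fold change of 0.34. Rises of at least 2-fold were called for 11 of the 30, against 11.5% of all genes. Scaling by library totals gave 15 higher and 7 lower, with a median of 0.16. Ccn2 (connective tissue growth factor) rose from 267 and 268 CPM to 2706 and 2645 (log2 fold change 3.32 ± 0.02), Ccn1 from 262 and 257 CPM to 1513 and 1528, and Ankrd1 from 39.5 and 36.7 CPM to 206 in both libraries. Vgll3, a cofactor of TEAD proteins, rose from 43.9 and 47.3 CPM to 411 and 399.8 (log2 fold change 3.15 ± 0.031), Tead4 fell from 55.4 and 55.1 CPM to 18.8 and 19.3, and Yap1 rose modestly (log2 fold change 0.44). The exception in size was Igfbp3, an IGF-binding protein, which fell from 592 and 574 CPM to 22.3 and 24.1 (log2 fold change -4.64 ± 0.033, adjusted p = 3.92e-41). The TEAD motif was present in 13 of the 23 promoters of this group (56.5%) and in 9 of the 23 contractile gene promoters (39.1%), against 11.8% for all genes tested, and the list holds known TEAD targets. It was also present in 6 of 12 skeletal muscle, 3 of 7 Schwann marker and 2 of 5 neuronal gene promoters, so a high share was not particular to these 2 groups.

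Collagens and matrix proteins rose broadly. Of 52 tested, 44 were called higher (84.6%, against 35.5% of all genes), 31 of them at least 2-fold (against 11.5% of all genes), 5 lower (9.62%, against 34.7%) and 3 not called, with a median log2 fold change of 1.29. Their summed level rose from 25623 and 25489 CPM to 77859 and 79107 CPM. Col1a1 (ENSMUSG00000001506, chr11:94936224-94953042) was at 2361 and 2436 CPM in vehicle and at 14798 and 15023 CPM with capmatinib (log2 fold change 2.64 ± 0.015, adjusted p = 1.59e-43). Fn1 (fibronectin) rose from 4201 and 4049.7 CPM to 10209 and 10732, Col12a1 from 467 and 451 CPM to 3795 and 4015, and Lox (lysyl oxidase, which cross-links collagen) from 78.7 and 79.2 CPM to 1348 and 1330.

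Small leucine-rich proteoglycans gave some of the largest rises of all genes. Ogn (osteoglycin) went from 4.86 and 4.45 CPM to 392 and 382 (log2 fold change 6.38 ± 0.042), Prelp from 1.19 and 1.55 CPM to 131 and 124 (log2 fold change 6.53 ± 0.07), and Aspn (asporin) from 0.513 and 0.467 CPM to 26.8 and 26.2 (log2 fold change 5.75 ± 0.13). Fmod (fibromodulin) reached 11.8 CPM in both capmatinib libraries from 0.270 and 0.123. Decorin and biglycan did not share this size of change, Dcn falling from 1.21 and 0.983 CPM to 0.701 and 0.529 and Bgn rising by 0.92 on the log2 scale. The matricellular Ccn5, another member of the CCN family, rose from 0.944 and 0.713 CPM to 68.1 and 64.7 (log2 fold change 6.33 ± 0.092). Thbs2 (thrombospondin 2) was the largest fall in the matrix list, from 467 and 439.6 CPM to 237 and 243 (log2 fold change -0.92 ± 0.026), while Thbs1 rose (log2 fold change 2.09).

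Matrix proteases and their inhibitors split by gene. Of 28 tested, 19 were called higher (67.9%, against 35.5% of all genes) and 7 lower (against 34.7%). The aggrecanase Adamts5 rose from 7.39 and 6.95 CPM to 133 and 137 (log2 fold change 4.24 ± 0.047). The metalloproteinase inhibitor Timp1 fell from 599 and 569.9 CPM to 206 and 205 (log2 fold change -1.51 ± 0.025). Mmp3 fell from 2.70 and 2.26 CPM to 0.595 and 0.731, Mmp10 from 1.05 and 0.983 CPM to 0.140 and 0.126, Serpinb2 from 2.99 and 3.37 CPM to 0.210 and 0.0756, and Plaur, the urokinase receptor, from 102 CPM in both vehicle libraries to 63.9 and 61.7. These 4 were the members whose promoter window held the AP-1 motif, out of 17 that could be read (23.5%, against 5.00% of all genes tested and 11.0% of genes at least 2-fold lower). The share was as high in lists with more members called higher than lower, 5 of 20 interferon-stimulated genes and 4 of 15 chemokines and cytokines. Mmp10 and Serpinb2 had 3 to 6 counts in each capmatinib library, so the size of their fall is poorly set.

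Of 32 integrin and focal adhesion genes tested, 21 were called higher (65.6%, against 35.5% of all genes) and 7 lower (21.9%, against 34.7%). Itga11, a collagen receptor subunit, had the largest rise of all named genes, from 0.378 and 0.295 CPM to 43.8 and 42.3 (log2 fold change 6.99 ± 0.12), and Lims2, a focal adhesion adaptor, rose from 0.243 and 0.197 CPM to 23 and 22.9 (log2 fold change 6.69 ± 0.15). The vehicle libraries held only 14 and 12 counts of Itga11 and 9 and 8 of Lims2, so the size and rank of these rises rest on few reads. Itga8 rose from 16.5 and 16.1 CPM to 284 and 276, and Itga1, another collagen receptor subunit, from 6.26 and 5.82 CPM to 61.2 and 62.9. Itga6, a laminin receptor subunit, fell from 399 and 394 CPM to 78.7 and 79.3, and Itgb7 from 11.8 and 10.0 CPM to 1.09 and 1.41 (log2 fold change -3.09 ± 0.15).

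**Figure D3:**
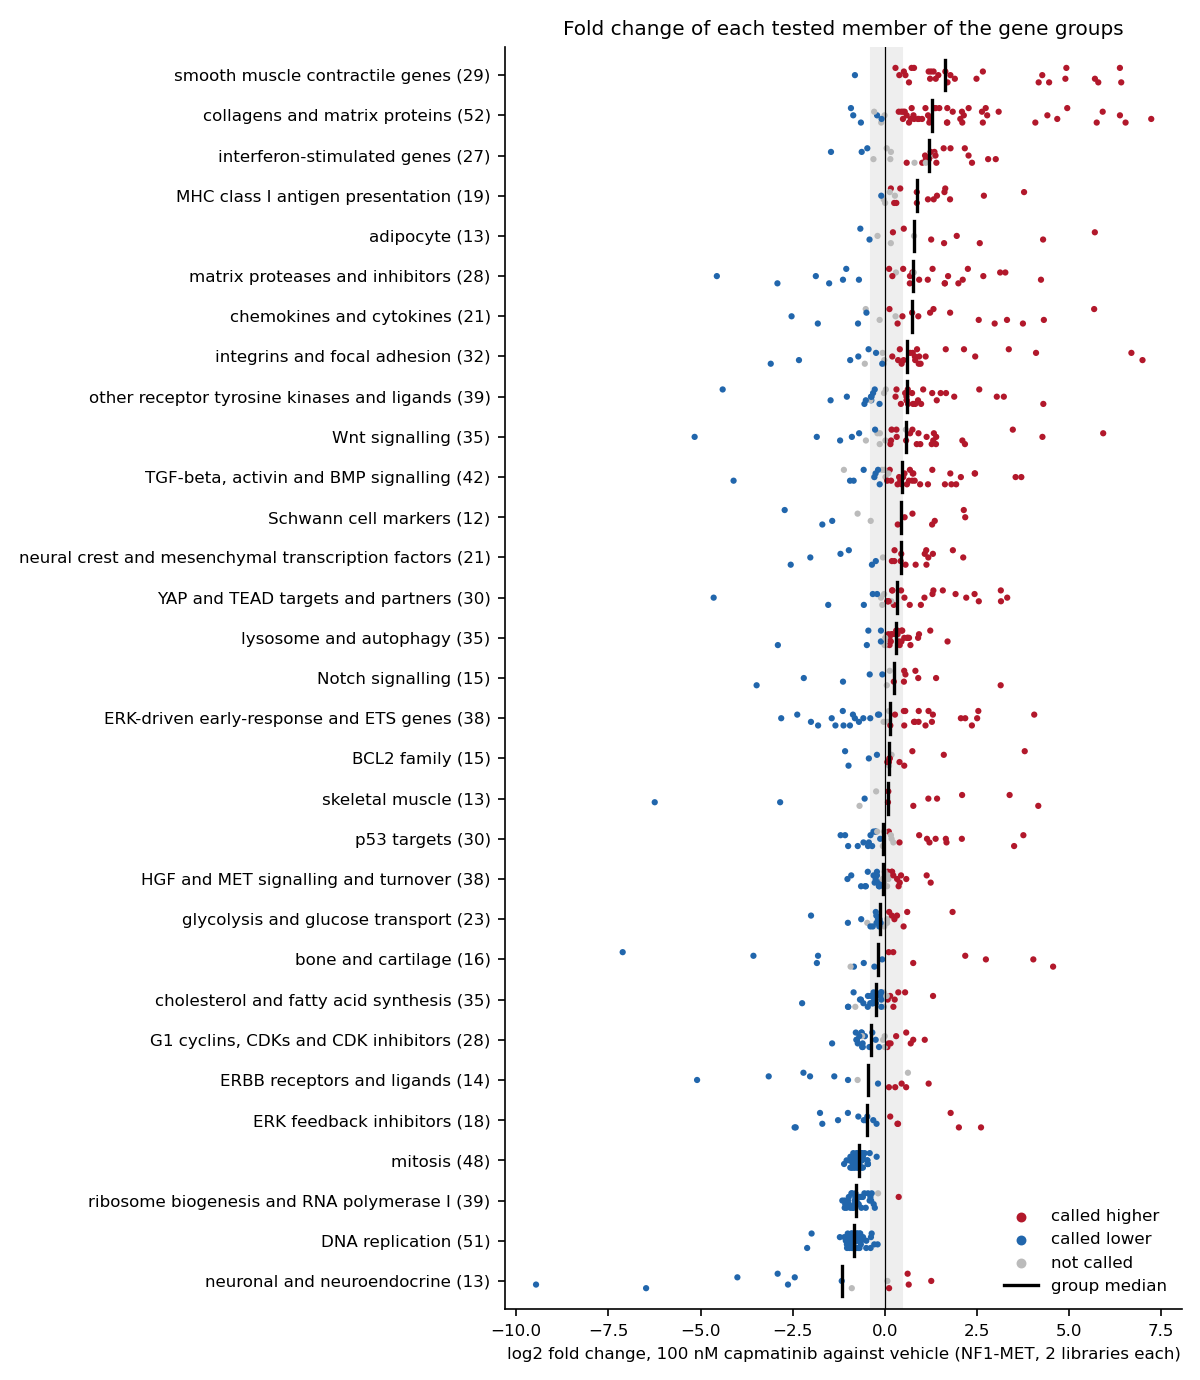
Each point is a tested member of a gene group (number tested in brackets), placed by its log2 fold change with capmatinib in NF1-MET cells, red where called higher, blue where called lower and grey where not called, with a black bar at the group median and a grey band between the quartiles of all genes tested (-0.37 and 0.46). Groups with at least 12 tested members are drawn, from the contractile genes at the top (median 1.64) to replication (-0.84) and neuronal genes (-1.17) at the bottom, and fitted values of genes near 0 counts in 1 group depend on the prior count of the fit.

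In the TGF-beta, activin and BMP list, 28 of 42 members were called higher (66.7%, against 35.5% of all genes) and 8 lower (19.0%, against 34.7%), with a median log2 fold change of 0.48. The library totals gave 25 higher and 13 lower, with a median of 0.29. Tgfb2 rose from 3.16 and 3.07 CPM to 43.1 and 38.5 (log2 fold change 3.7 ± 0.084) and Tgfb3 from 55.8 and 59.2 CPM to 196 and 198, while Tgfb1 fell from 94.1 and 93.4 CPM to 48.7 and 48.8. The 3 TGF-beta ligand genes therefore did not move alike. Bmp2 fell from 135 and 132 CPM to 8.16 and 7.48 (log2 fold change -4.10 ± 0.048, adjusted p = 2.69e-35). Ltbp2, a protein of the latent TGF-beta binding family, rose from 302 and 305 CPM to 1044 and 1080.0.

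Of 35 Wnt pathway genes tested, 22 were called higher (62.9%, against 35.5% of all genes) and 6 lower (17.1%, against 34.7%), with a median log2 fold change of 0.57, and with library totals alone 16 were higher and 8 lower. The receptor gene Fzd8 rose from 11.0 CPM in both vehicle libraries to 28.4 and 29.1 (log2 fold change 1.39 ± 0.065), and the secreted modulator Dkk2 fell from 304 and 299 CPM to 84.9 and 83.2 (log2 fold change -1.85 ± 0.027). Axin2, a common target of the pathway, rose by 0.96 on the log2 scale from under 2 CPM, and Ctnnb1, which encodes beta-catenin, was not called. Of 15 Notch pathway genes, 8 were called higher (53.3%, against 35.5% of all genes) and 5 lower (33.3%, close to the 34.7% of all genes). The coactivator Maml2 rose from 18.7 and 20.1 CPM to 52.1 and 50 (log2 fold change 1.39 ± 0.051), Notch3 from 0.647 and 0.590 CPM to 5.18 and 5.72, and Notch1 fell from 45.6 and 44.6 CPM to 31.8 and 35.6 (log2 fold change -0.41 ± 0.049).

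Several defining Schwann cell markers were near 0 in both conditions. Sox10, the defining transcription factor of the lineage, had 4 and 7 counts in the vehicle libraries and 1 and 2 with capmatinib, too few to test. S100b was at 0.351 and 0.418 CPM in vehicle and at 0.385 and 0.227 CPM with capmatinib, and its groups overlapped (log2 fold change -0.38 ± 0.47, adjusted p = 0.481). Of the 21 listed markers 12 were tested, and Ngfr, Cdh19, Foxd3, Pou3f1, Gfap, Mal and Mag were among those that did not pass the filter. Of the 12, 7 were called higher (58.3%, against 35.5% of all genes), 4 of them at least 2-fold (against 11.5%), and 3 lower (against 34.7%). The summed level of the list was 214 and 221 CPM in vehicle and 416 and 408 CPM with capmatinib. Pmp22 and Egr2, whose values follow, made up much of this rise.

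Among the Schwann genes that were measured, Egr2, the myelination transcription factor, rose from 16.8 and 14.8 CPM to 71.9 and 71.3 (log2 fold change 2.18 ± 0.051). Pmp22, a myelin protein also made by fibroblasts, rose from 22.7 CPM in both vehicle libraries to 102 and 98.4. Gap43, found in non-myelinating and repair Schwann cells, fell from 18.4 and 17.7 CPM to 2.80 and 2.70 (log2 fold change -2.72 ± 0.1).

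Of 21 neural crest and mesenchymal transcription factors tested, 14 were called higher (66.7%, against 35.5% of all genes) and 6 lower (28.6%, against 34.7%). Sox2 fell from 150.4 and 148 CPM to 26.3 and 24.8 (log2 fold change -2.55 ± 0.036), and Sox9 from 64.6 and 62.8 CPM to 15.6 and 15.8. Snai2, a regulator of the mesenchymal state, rose from 20.5 and 18.7 CPM to 69.6 and 70.9 (log2 fold change 1.85 ± 0.048).

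Bone and mineralisation genes contained the largest fall among the named genes with a well-measured low group. Dmp1, a matrix protein of osteocytes, went from 438 and 409.8 CPM to 2.94 and 3.15 (log2 fold change -7.11 ± 0.05, adjusted p = 3.20e-41). Ank, a transporter that supplies the mineralisation inhibitor pyrophosphate, fell from 960.1 and 919 CPM to 263 and 261, and Spp1 from 5102 and 4974 CPM to 1457 and 1413. Runx2, the osteoblast transcription factor, was at 66.1 and 66.0 CPM in vehicle and at 77.8 and 77.0 CPM with capmatinib (log2 fold change 0.23 ± 0.034), a rise that was not called with library totals alone (log2 fold change 0.04, adjusted p = 0.537). Matn2 (matrilin-2) rose from 46.5 and 48.0 CPM to 81.8 and 79.7 (log2 fold change 0.77 ± 0.037). Of 16 tested members, 7 were called higher (43.8%, against 35.5% of all genes) and 8 lower (against 34.7%).

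Of 27 skeletal muscle genes listed, 13 passed the filter, and 8 were called higher (61.5%, against 35.5% of all genes) and 3 lower (23.1%, against 34.7%), or 5 and 3 with library totals alone. Rises of at least 2-fold were called for 5 of the 13, against 11.5% of all genes. The myogenic factors Myod1, Myf5, Myog and Myf6 had no count in any of the 4 libraries. Acta1, the skeletal muscle actin, rose from 0.567 and 0.664 CPM to 11.0 and 11.2 (log2 fold change 4.16 ± 0.16), and Chrna1, a subunit of the muscle acetylcholine receptor, fell from 11.1 and 11.5 CPM to 0.210 and 0.101 (log2 fold change -6.24 ± 0.22). The adipocyte list gave 8 of 13 members higher (61.5%, against 35.5% of all genes) and 2 lower (15.4%, against 34.7%). Ebf1, a transcription factor of preadipocytes, rose from 5.58 and 5.14 CPM to 31.8 and 32.1 (log2 fold change 2.58 ± 0.074), and Plin2, a lipid droplet coat protein, fell from 130.1 and 129 CPM to 81.1 and 82.1 (log2 fold change -0.66 ± 0.029). Pparg was not called, and Adipoq had at most 1 count in a library.

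Neuronal and neuroendocrine genes lost several members expressed in vehicle. Of 13 tested, 7 were called lower (53.8%, against 34.7% of all genes), each at least 2-fold (against 5.35%), and 4 higher (30.8%, against 35.5%). With a stricter filter, which let at most 1 of the 8 libraries hold fewer than 10 counts, 7 were tested, of which 2 were lower and 4 higher, and the median went from -1.17 to 0.13. Insm1, a neuroendocrine transcription factor, had 883 and 911 counts in the vehicle libraries (23.8 and 22.4 CPM) and 0 and 2 counts with capmatinib. The neurofilament gene Nefl fell from 118 CPM in both vehicle libraries to 7.81 and 7.08, and Nefm from 79.6 and 79.9 CPM to 10.9 and 10.4. Map2, a microtubule-associated protein, rose instead, from 21.3 and 20.5 CPM to 50.1 in both libraries (log2 fold change 1.26 ± 0.049).

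The listed haematopoietic, epithelial and endothelial markers stayed at or near 0. No list was made for other cells that a tumour-derived culture could carry over, such as fibroblasts. Of 12 haematopoietic markers, 11 did not pass the filter, and the summed level of the list was 1.89 and 1.62 CPM in vehicle and 0.911 and 1.31 CPM with capmatinib. Of 12 epithelial markers, 11 did not pass (summed level 0.809 and 0.860 CPM in vehicle, 0.175 and 0.252 CPM with capmatinib), and of 10 endothelial markers, 7 did not pass (summed level 2.48 and 2.16 CPM in vehicle, 2.80 and 3.17 CPM with capmatinib). Ptprc, Epcam and Pecam1 had at most 7, 1 and 6 counts in a library.

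Most genes of ribosome production fell, as the replication and mitosis genes did. Of 39 ribosome biogenesis and RNA polymerase I genes tested, 37 were called lower (94.9%, against 34.7% of all genes), 1 higher (2.56%, against 35.5%) and 1 not called, with a median log2 fold change of -0.77. Falls of at least 2-fold were called for 5 of the 39, against 5.35% of all genes. Dkc1 (dyskerin) fell from 127 and 132 CPM to 59.5 and 57.4 (log2 fold change -1.15 ± 0.032), Ncl (nucleolin) from 1564 and 1549 CPM to 889 and 877, and Polr1b from 56.9 and 59.7 CPM to 27.5 and 27.4. Taf1b was the member called higher, from 9.47 and 8.97 CPM to 12.7 and 11.4 (log2 fold change 0.38 ± 0.086), which was not called with library totals alone (log2 fold change 0.19, adjusted p = 0.0746).

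Lipid synthesis genes fell by less. Of 35 cholesterol and fatty acid synthesis genes, 23 were called lower (65.7%, against 34.7% of all genes), 7 higher (against 35.5%) and 5 not called (median log2 fold change -0.25). The library totals gave 28 lower and 3 higher, with a median of -0.44. Fasn (fatty acid synthase) fell from 629 and 635 CPM to 314 and 318 (log2 fold change -1.0 ± 0.022). Mylip, which encodes a ubiquitin ligase and is induced by the sterol-sensing liver X receptors, rose from 8.12 and 7.15 CPM to 18.8 and 18.9 (log2 fold change 1.31 ± 0.08).

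Of 23 glycolysis genes, 12 were called lower (52.2%, against 34.7% of all genes) and 7 higher (30.4%, against 35.5%), with a median log2 fold change of -0.14. Scaling by library totals gave 13 lower and 3 higher, with a median of -0.33. The lactate transporter Slc16a1 fell from 187 CPM in both vehicle libraries to 47.4 and 46.1 (log2 fold change -2.00 ± 0.031), the pyruvate kinase gene Pkm from 2069.8 and 2048 CPM to 1319 and 1323, and Pfkp rose from 33.2 and 32.5 CPM to 50.4 and 49.6 (log2 fold change 0.61 ± 0.044). Of 35 lysosome and autophagy genes, 24 were called higher (68.6%, against 35.5% of all genes) and 5 lower (14.3%, against 34.7%), with a median log2 fold change of 0.30. Scaling by library totals gave 17 higher and 8 lower, with a median of 0.11. Map1lc3a, an autophagosome protein, rose from 15.1 and 15 CPM to 47.2 and 50.4 (log2 fold change 1.70 ± 0.055), and the lysosomal enzyme gene Gla fell from 18.6 CPM in both vehicle libraries to 13.3 and 13.2 (log2 fold change -0.49 ± 0.069).

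Many interferon-stimulated and antigen presentation genes were called higher. Of 27 interferon-stimulated genes tested, 17 were called higher (63.0%, against 35.5% of all genes), 16 of them at least 2-fold (against 11.5%), 3 lower (11.1%, against 34.7%) and 7 not called, with a median log2 fold change of 1.20. Parp14 rose from 2.54 and 2.36 CPM to 12.4 and 12.8 (log2 fold change 2.37 ± 0.11), Irf1 from 16.4 and 14.7 CPM to 40.1 and 39.1, and Isg15 from 1.13 and 1.15 CPM to 2.59 and 2.39 (log2 fold change 1.11 ± 0.21, adjusted p = 1.82e-05). Ifit1 and Ifit3 were not called and Ifit2 fell from 32.6 and 33.4 CPM to 23.9 and 23.7 (log2 fold change -0.47 ± 0.053), so the rise did not cover the list. The summed level of the list was 203 CPM in both vehicle libraries and 387 and 384 CPM with capmatinib.

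Of 19 genes of MHC class I antigen presentation, 14 were called higher (73.7%, against 35.5% of all genes), 1 lower (5.26%, against 34.7%) and 4 not called, with a median log2 fold change of 0.87. The summed level of the 19 members went from 3753 and 3761 CPM to 3942 and 3855 CPM. The peptide loading factor Tapbp rose from 28.3 and 28.7 CPM to 88.8 and 86.4 (log2 fold change 1.62 ± 0.04), and the heavy chain gene H2-K1, which belongs to a family of similar genes that can share reads, went from 45 and 45.6 CPM to 54.1 and 53.9 (log2 fold change 0.25 ± 0.04), a call that was lost with library totals alone (log2 fold change 0.07, adjusted p = 0.352). Canx (calnexin) was at 882 CPM in both vehicle libraries and at 830.4 and 819.9 CPM with capmatinib. Of 21 chemokines and cytokines, 14 were called higher (66.7%, against 35.5% of all genes) and 4 lower (19.0%, against 34.7%). Ptx3 (pentraxin 3) rose from 2.35 and 2.16 CPM to 116 and 115 (log2 fold change 5.68 ± 0.062), Csf1 from 293 and 294 CPM to 734 and 735, and Cxcl12 from 115 and 111 CPM to 264 and 266, while Il11 fell from 10.1 CPM in both vehicle libraries to 1.89 and 1.64 (log2 fold change -2.53 ± 0.13).

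Outside the lists, the largest falls among genes with at least 10 CPM in their higher group included Krt20, from 62.7 and 62.1 CPM to 0.876 and 0.680 (log2 fold change -6.35 ± 0.094), Nptx1 (neuronal pentraxin 1), from 39.3 and 38.3 CPM to 0.455 and 0.403 (log2 fold change -6.50 ± 0.12), Gpr165, from 13.7 and 13.6 CPM to 0.175 and 0.277, and Akr1c18, from 93.3 and 87.2 CPM to 3.85 and 4.54 (log2 fold change -4.41 ± 0.065). By class, 76.9% of the 12319 protein-coding genes tested were called, against 43.6% of the 296 lincRNAs and 22.0% of the 736 processed pseudogenes, of which 130 were lower and 32 higher. Processed pseudogenes can take reads from their parent genes, so their calls are uncertain.

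The response was then compared with that of NF1-MET;sgP53 cells by a test of the difference between the log2 fold changes (the line by treatment interaction over all 8 libraries). On CPM scaled over all 8 libraries, which this comparison uses, vehicle levels of Trp53 were 182 and 193 in NF1-MET and 97.5 and 100.1 in the sgP53 line. Those of Cdkn1a were 92.9 and 87.2 in NF1-MET and 29.5 and 27.1 in the sgP53 line. The difference was called for 1407 of 14497 genes (9.71%), 849 above 0 (5.86%), where the NF1-MET value was the more positive, and 558 below 0 (3.85%). This split depended on the processing: without Gm42418 it was 612 above and 873 below, with library totals alone 123 and 192, with no filter 628 and 746, and without the second capmatinib library of the sgP53 line 509 above and 713 below.

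Contractile genes differed in the size of their rise. Of 29 tested, 16 had a difference above 0 (against 5.86% of all genes) and 1 below 0 (against 3.85%). The median rise was 1.64 on the log2 scale, against 1.37 in NF1-MET;sgP53. The fold change of Acta2 was larger in NF1-MET by 1.00 ± 0.021 on the log2 scale (adjusted p = 1.39e-20), that of Tagln by 1.57 ± 0.041 and that of Cnn1 by 1.62 ± 0.11. The larger fold changes came with lower vehicle levels and not with higher capmatinib levels. Acta2 was at 408 and 416 CPM in NF1-MET vehicle against 891 and 889 in sgP53 vehicle, and with capmatinib at 7559 and 7484 against 8092 and 8188. Tagln was at 34.2 and 36.3 CPM against 124 and 129.9 in vehicle, and at 785 and 782 against 949 and 949.7 with capmatinib. Cnn1 reached 153 CPM in both capmatinib libraries of NF1-MET against 196 and 188 in the sgP53 line. Collagens and matrix proteins gave 23 differences above 0 (against 5.86% of all genes) and 4 below 0 (against 3.85%) of 52, with medians of 1.29 and 1.12. With library totals alone the differences above 0 numbered 6 for the contractile genes and 7 for the matrix genes.

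Some replication genes fell less in NF1-MET. Of the 51, 16 had a difference above 0 (against 5.86% of all genes) and none below 0 (against 3.85%), with medians of -0.84 and -0.94 (edgeR). Those above 0 numbered 12 without Gm42418, 8 by the DESeq2 Wald test and 0 with library totals alone. Mcm2 is an example, with log2 fold changes of -0.77 and -0.98 and a difference of 0.23 ± 0.044. Mitosis genes gave 1 difference in 48 (against 9.71% of all genes in either direction), Cenpe, named after its value was seen. The log2 fold change of Hgf was -1.01 here and -0.35 in NF1-MET;sgP53, a difference of -0.64 ± 0.072 (adjusted p = 7.44e-07). Hgf was at 54.7 and 51.1 CPM in NF1-MET vehicle against 32.9 and 33.5 in sgP53 vehicle, and with capmatinib at 26.4 and 26.6 against 26.7 and 25.3, so the lines were apart in vehicle and close with capmatinib. Ccnd1, Cdkn1b, Hmga1, Areg, Igf1 and Itga11 changed in NF1-MET by amounts whose difference from the other line was not called, with differences between -0.05 and 0.05 on the log2 scale and standard errors from 0.03 for Ccnd1 to 0.47 for Areg.

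**Figure D4:**
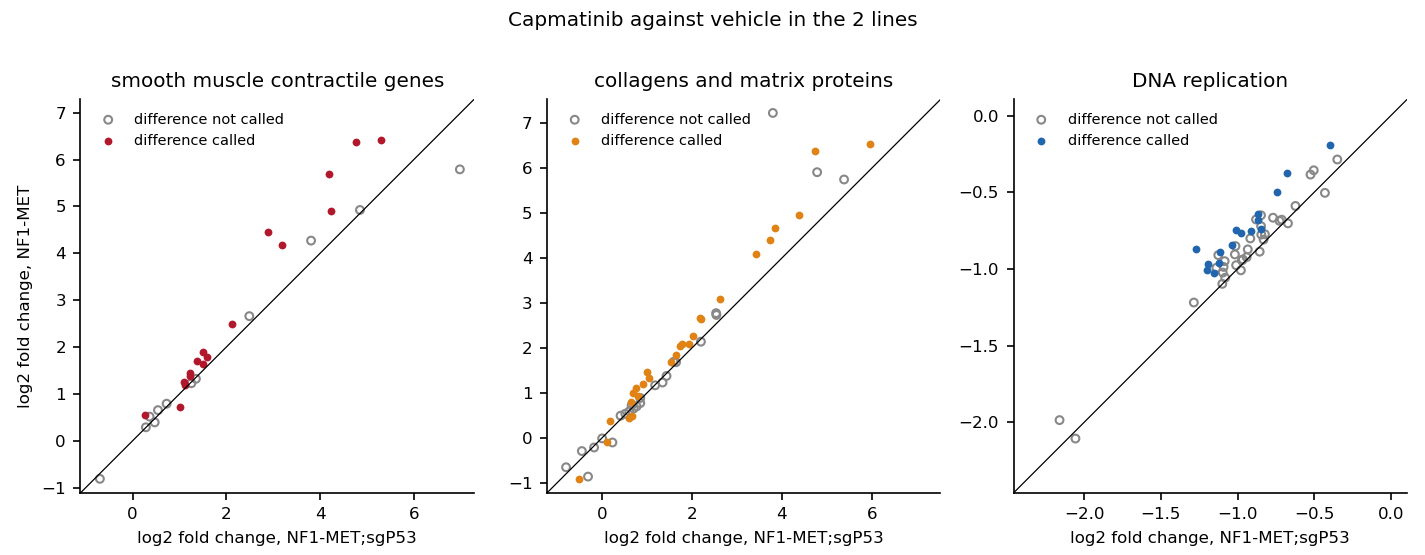
Log2 fold change with capmatinib in NF1-MET (vertical) against that in NF1-MET;sgP53 (horizontal) for the tested members of the contractile, matrix and DNA replication lists, filled where the difference between the lines was called and open where it was not, with the line of equal change drawn. Most called contractile and matrix genes lie above the line (16 of 17 and 23 of 27), and all 16 called replication genes do as well.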

How the data were processed

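Poly(A) RNA was sequenced from both lines with and without capmatinib, 4 groups of 2 libraries. The deposited values were raw counts per gene, which the authors made from reads trimmed with Trim Galore 0.4.2 and aligned to mm10 with STAR 2.5.2b (versions from the submitters' processing notes). The strand setting and annotation release of the counting are not given in the sources used here, so reads of overlapping and antisense genes may be shared.

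A gene entered the analysis when 2 or more of the 8 libraries held 10 or more counts of it (14497 of 50600), and the 14496 with a count in 2 or more NF1-MET libraries were tested with the quasi-likelihood F-test of edgeR 4.0.16 (R 4.3.3, legacy form) after TMM scaling within those libraries, with p-values adjusted by the Benjamini-Hochberg method over all of them. Genes were called at an adjusted p under 0.05. Standard errors are of the log2 fold change, and CPM are TMM-scaled within the NF1-MET libraries, except where the lines are compared, where they are scaled over all 8. The test was checked on simulated data with 200 of 14493 genes changed. In the NF1-MET comparison 8.38% of its 179 calls there were false, above the threshold used. The difference between the lines was the interaction term in all 8 libraries. DESeq2 1.42.0 gave an alternative test. At 30116810 to 42781371 counts per library, counting error is small above about 10 CPM and large under 1 CPM.

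Named genes were a fixed set of 29 (Met, Acta2, Ccnd1 and others, of which Sox10 could not be tested), the largest called rise and fall of each gene list, and the 10 largest rises and falls of all genes, among those whose groups did not overlap and whose higher group averaged at least 10 CPM. Some genes that these rules name are not reported here. The members, lists and rules were chosen with earlier results of these data known. Alternatives were other scalings, filters and tests, a replicate block, all 8 libraries in 1 fit, removal of Gm42418 and of each library in turn. Gene names come from GENCODE M21 (50376 of 50600 identifiers matched) and promoters from RefSeq (GRCm38.p6, chromosome 18 left out, first start listed for a gene).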

Additional observations from a re-analysis of the deposited data

Results flagged for a closer look

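The fold change with capmatinib differed between NF1-MET and NF1-MET;sgP53 by the interaction test (edgeR, adjusted p under 0.05 over 14497 genes) for 38 of 91 named genes, 25 with the NF1-MET value more positive and 13 with it more negative. Over all genes 9.71% had such a difference, 5.86% above 0 and 3.85% below 0, and most of the 91 were chosen for a large change in NF1-MET, which is 1 arm of the difference, so their share is not to be set against that of all genes. All values that follow are differences of log2 fold changes, NF1-MET minus NF1-MET;sgP53. Among contractile, adhesion and matrix genes the difference was 1.00 for Acta2, 1.57 for Tagln, 1.62 for Cnn1, 1.13 for Lmod1, 1.53 for Myl9, 0.97 for Ccn2, 1.09 for Ccn5, 0.44 for Col1a1, 1.67 for Ogn, 0.58 for Prelp, -0.39 for Thbs2, 0.32 for Adamts5, 0.27 for Matn2 and -1.03 for Igfbp3. Among receptors, ligands and signalling genes it was -0.16 for Met, -0.64 for Hgf, -0.30 for Spry4, 0.18 for Dusp1, 0.18 for Stat3, -0.81 for Gfra1, -0.58 for Bmp2, -0.45 for Dkk2 and 1.80 for Ptx3. Among transcription factors and lineage genes it was 0.51 for Fos, 0.36 for Egr2, 0.21 for Etv4, 0.46 for Snai2, -0.51 for Sox2, 0.95 for Ebf1, -1.17 for Dmp1 and -0.35 for Map2. Among cell cycle, p53 target, metabolic and interferon genes it was 0.23 for Mcm2, 0.28 for Cdkn1a, 0.37 for Btg2, 0.18 for Pfkp, -0.16 for Slc16a1, -0.49 for Akr1c18 and 0.65 for Parp14.

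All 38 kept the sign of their difference under each alternative run. With library totals alone 20 of the 38 were still called, 32 by the DESeq2 Wald test, 35 without Gm42418, and 29 without the second vehicle library of NF1-MET. Groups of 2 libraries are too small for a test of single libraries far from the rest.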

How the results depend on the processing

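The counts of genes in the NF1-MET comparison stayed within 1.5 times under every alternative but 2: genes at least 2-fold lower numbered 1188 with library totals alone and 510 with the stricter filter, which leaves fewer genes to test, against 776. With library totals alone 3508 genes were called higher and 6381 lower (35.5% of calls higher, against 50.5%). For the difference between the lines, genes above 0 numbered 123 with library totals and 461 by the DESeq2 Wald test against 849, and genes below 0 numbered 192 with library totals and 873 without Gm42418 against 558. The causes were not tested. Leaving out each library in turn, with the lone library of its group assumed to vary like the other group, gave 4639 to 4892 genes higher, 4553 to 4756 lower, 1552 to 1620 at least 2-fold higher and 734 to 770 at least 2-fold lower, and 509 to 738 differences above 0 and 377 to 713 below 0 (509 and 713 without the second capmatinib library of NF1-MET;sgP53). The share of called differences above 0 was 60.3% and fell to 41.2% without Gm42418, 45.7% with no filter, 52.4% with DESeq2 size factors and 39.0% with library totals.

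With the replicate block, 5122 genes were called higher and 5019 lower, and 905 differences were above 0 and 619 below 0. Same-numbered libraries did not deviate together from their group means (correlation -0.0667 over 8602 genes). No pairing by number was thus seen, and whether same-numbered samples were handled together is not known. With the block no call of a named gene changed in NF1-MET and none of the 38 called differences between the lines was lost.

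Of the list medians, 6 changed sign: with library totals the early-response genes moved to -0.0549, the BCL2 family to -0.0593 and the skeletal muscle genes to -0.0905, with the stricter filter the neuronal genes to 0.13 and the endothelial markers to -1.15, and without the second vehicle library the p53 targets to 0.0087 (-0.0687 to 0.0087 without each library in turn). With the stricter filter no epithelial marker was left to give a value. Among the named genes, 1173 of the values recomputed kept their direction and call, and 5 changed their call, all with library totals (Egfr, H2-K1, Runx2 and Taf1b lost it and Myc gained it). Depth limits genes under 1 CPM, of which 33.8% were called.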
